A study of Arabidopsis thaliana with 12 samples.

Results

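The genes described here are those whose signal in the dissected shoot apex stood highest over the whole plant. They were chosen on signal intensity, floored at 20 and taken to log2, as probe sets whose mean in mock shoot apical meristem (SAM) parts exceeded the mean in mock whole plants by at least 2.5 on the log2 scale (5.66-fold), with all 3 SAM arrays above all 3 whole plant arrays. The rule passed 132 of 22746 probe sets (0.58%). It leaves out by name 8 of these, such as YUC4, GH3.3 and AGL24, and 124 members remain. The platform annotation gave exactly 1 gene for 47 members and several genes for 1, and 76 members are unnamed here. Among the 47 single-gene members no gene had more than 1 probe set, and for the other members this is not known. Because mock SAM and whole plant values chose the members, those values are given as a description, with no test.

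Total RNA of Arabidopsis thaliana, ecotype Col-0, was measured on 12 arrays, 3 in each of 4 groups. The groups were SAM parts from plants grown with 50 µM L-AOPP and 10 nM IAA, SAM parts from plants grown with 50 µM L-AOPP, SAM parts from mock plants, and mock whole plants. Mock plants received DMSO (0.1% in the series text), and whether the L-AOPP plates held DMSO is not stated. L-AOPP is a small molecule studied here as an inhibitor of auxin biosynthesis, and IAA is the main natural auxin. Plants grew on MS agar under continuous light, and their age is 4 days in the sample labels and 7 days in the series text. The SAM part was cut out with a micro knife, so it is a piece of tissue and not a sorted cell type, and in such a bulk sample fewer cells of a type and less RNA per cell cannot be told apart. The labels do not say whether the 3 replicates were independent cultures, and the spread that the p-values rest on may be technical.

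The shoot apical meristem is the group of dividing cells at the shoot tip that renews itself and gives rise to leaves, stems and flowers. Its flanks carry young leaf primordia, and auxin made and moved within the tip marks where primordia form. Tissue cut from the tip therefore holds meristem, boundary and primordium cells, while a whole seedling is mostly expanded cotyledon, hypocotyl and root.

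The dissected parts carried apex transcripts. A list of meristem and organ boundary genes held 37, of which only 6 had a probe set named for them alone and were measured. Of these 6, 6 had mock SAM arrays above all whole plant arrays, against 43.3% of all 15923 probe sets tested. Their median log2 difference was 1.97. Of 35 listed cell cycle genes 8 were measured, and 8 lay above, with a median of 1.73. The 4 measured photosynthesis genes, of 12 listed, all lay below the whole plant arrays (median -1.57), against 26.8% of probe sets tested. Their summed signal was 32445 to 36490 with L-AOPP and IAA, 33818 to 35172 with L-AOPP and 35082 to 37350 in mock SAM, against 84627 to 96495 in whole plants. Transcripts of these 4 genes were thus present in every SAM group at similar sums. How much leaf tissue the SAM parts held was not tested. None of the listed genes with a named probe set is a member, since each fell short of the threshold or is left out by name. Listed genes without one cannot be placed, because 76 members are unnamed here. Mock SAM replicate 3 stood apart in the 25S rRNA control, with a signal of 164 against 5170 to 10331 on every other array. A sign of RNA quality, the GAPDH 3′ over 5′ control signal on the log2 scale, was 1.29 ± 0.06 with L-AOPP and IAA, 1.504 ± 0.12 with L-AOPP, 1.78 ± 0.36 in mock SAM and 0.97 ± 0.03 in whole plants (SD, n = 3 each).

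The members' mock SAM signal exceeded the whole plant signal by 2.502 to 5.19 on the log2 scale, with a median of 2.94 (7.69-fold). In 98 members all whole plant arrays lay above the floor of 20, in 14 members 1 array lay at or below it, and in 12 members at least 2 did. For those 12 the floored fold is a lower bound and has no order among them. For the 14 with 1 such array the floor raised the whole plant mean, so their folds are lower bounds too. No mock SAM array of any member lay at or below the floor. The 3 single-gene members just inside the threshold were AT4G12890 (2.51), AT5G48480 (2.51) and AT3G62960 (2.52), and the 3 single-gene probe sets just outside were AT5G66940 (2.495), AT1G71691 (2.49) and AT5G43020 (2.49).

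**Figure D1:**
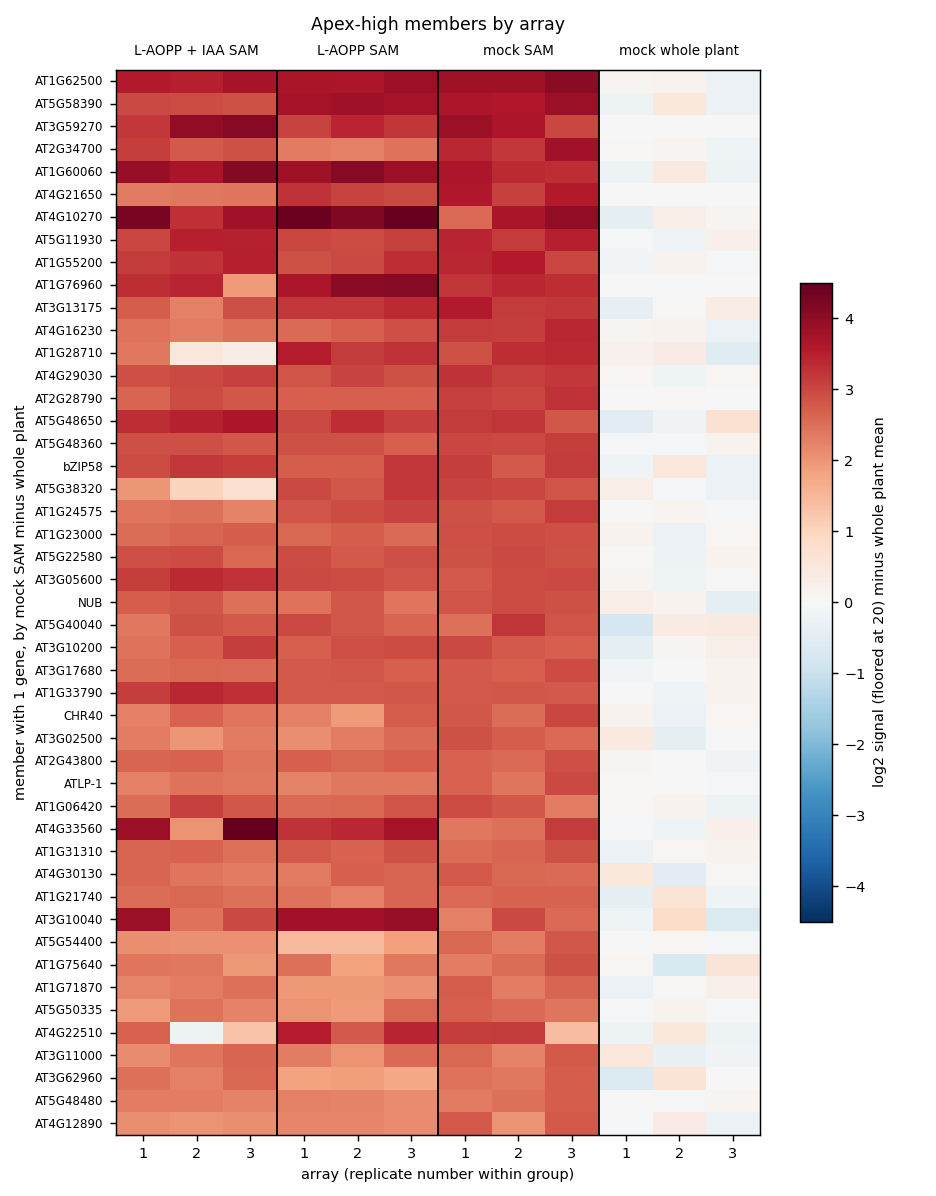
Log2 signal (floored at 20) minus the whole plant mean for the 47 members with 1 gene (rows, by mock SAM minus whole plant difference) on 12 arrays (columns, by group). Mock SAM columns lie above the whole plant mean in every row because they chose the members, though the AT4G22510 cell of mock replicate 3 (signal 61) is pale. The pale cells in the L-AOPP with IAA columns belong to AT1G28710, AT5G38320 and AT4G22510.

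Among proteins of the cell wall and the secretory route, AT1G62500, of the lipid transfer and seed storage albumin superfamily, had the largest difference among the single-gene members measured above the floor on all whole plant arrays. Its signal was 4221.7, 4227.6 and 4941 in mock SAM, against 328.7, 330.9 and 246.7 in whole plants (14.9-fold). AT5G58390, a class III peroxidase gene, stood at 1324.7, 1286.3 and 1540.9 in mock SAM and at 91.9, 147.5 and 89.2 in whole plants (12.9-fold). AT2G34700, whose product belongs to the pollen Ole e 1 and extensin family, had 543.2, 467.1 and 714.7 in mock SAM, against 54.1, 56.9 and 44.7 in whole plants (10.96-fold). A pair of thaumatin-like protein genes are both members, with AT2G28790 at 8.62-fold and ATLP-1 at 6.42-fold. The GDSL lipase gene AT4G16230 was 9.25-fold higher in the apex, AT1G28710, for a nucleotide-diphospho-sugar transferase, 9.08-fold, and the jacalin lectin gene AT1G33790 6.88-fold. The subtilase gene AT4G21650 had 245.1, 172.2 and 237.5 in mock SAM, with whole plants at 19.9, 17.2 and 20.7, so its difference is at least 10.7-fold.

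Several members encode regulators of transcription or chromatin. NUB, a zinc finger protein related to JAGGED that acts in lateral organ growth, had 344.2, 361.8 and 346.9 in mock SAM, against 58.5, 52.9 and 35.4 in whole plants (7.33-fold). The basic leucine zipper gene bZIP58 had 611.8, 474.1 and 621.7 in mock SAM, against 61.4, 97.2 and 58.8 in whole plants (8.01-fold). CHR40, also known as CLSY4, is a chromatin remodelling factor that helps direct DNA methylation through small RNAs. It had 187.6, 152 and 215 in mock SAM and 30.3, 22.4 and 28.6 in whole plants (6.81-fold). The trihelix transcription factor genes AT1G31310 and AT3G10040 were 6.36-fold and 6.03-fold higher. AT3G10040 is HRA1 in the gene table, HYPOXIA RESPONSE ATTENUATOR1.

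Cytoskeleton and signalling genes included the formins AT5G48360 (8.18-fold) and AT2G43800 (6.497-fold), whose products nucleate actin filaments, and AT3G17680 (6.94-fold), for a protein of the kinase-interacting KIP1-like family. The kinase gene AT1G55200 and the WNK-related gene AT1G60060 were 10.02-fold and at least 10.8-fold higher, and AT1G75640, a leucine-rich repeat receptor kinase known as MUSTACHES from work on stomata, 5.88-fold. Both CC-type glutaredoxin genes on the list, AT5G11930 (10.3-fold) and AT3G62960 (at least 5.75-fold, 1 whole plant array below the floor), belong to a plant family of small redox proteins. Methyltransferase genes were AT3G10200 (6.97-fold) and AT5G54400 (5.95-fold). AT1G71870, for a MATE family efflux transporter, was 5.85-fold higher, the heavy-metal-domain gene AT1G23000 7.53-fold and the epoxide hydrolase-like gene AT3G05600 7.40-fold. AT5G40040, for an acidic ribosomal P2 protein, was 7.21-fold higher, and AT5G48650, for an NTF2 domain protein with an RNA-binding motif, at least 8.32-fold with 1 whole plant array below the floor. AT4G10270 and AT4G33560, of the wound-responsive protein family, were 10.6-fold and 6.38-fold higher, while the 3 measured genes on the wound list were not above whole plants. The other single-gene members are AT3G59270, AT1G76960, AT3G13175, AT4G29030, AT5G38320, AT1G24575, AT5G22580, AT3G02500, AT1G06420, AT4G30130, AT1G21740, AT5G50335, AT4G22510, AT3G11000, AT5G48480 and AT4G12890. By gene order in the reference gene table no 2 single-gene members were direct neighbours. The nearest pairs were AT5G48360 and AT5G48480, with 13 protein-coding genes between them, and AT3G10040 and AT3G10200, with 17.

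The SAM arrays of treated plants were not used to choose the members. With L-AOPP all 124 members had 3 SAM arrays above all whole plant arrays. In mock SAM 43.3% of all probe sets tested lay so, and no such share was computed for treated SAM. With L-AOPP 86 members had a difference of at least 2.5, with a median of 2.78. With L-AOPP and IAA 121 of 124 lay above all whole plant arrays and 75 had a difference of at least 2.5, with a median of 2.66. These differences share the whole plant arrays with the rule, which chose members for a wide gap over those arrays. The cut at 2.5 was made on mock SAM values, so counts below 124 in other SAM groups are partly built in. Such counts are no measure of a treatment effect.

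L-AOPP against mock asks how the inhibitor changed these transcripts in the apex. Members were lower with L-AOPP by a median of 0.26 on the log2 scale, while the median of all 15923 probe sets tested was -0.01. Of the 124 members 18 (14.5%) were called lower, against 1.38% of all probe sets tested, and 4 of the 18 have 1 gene. None was called higher in the limma fit, against 1.25% of all probe sets tested. At an unadjusted p below 0.05 in that fit 5 members were higher and 41 lower. The share of all probe sets at that p was not computed, so these 2 counts are no result about the members. In 97 members (78.2%) the L-AOPP mean lay below the mock mean, against 50.9% of all probe sets tested. The same mock arrays chose the members, so these shares are not independent of the rule. When the members were chosen with 1 mock array left out and compared with that array alone, an alternative added after seeing the data, the median difference was -0.18, -0.19 and -0.22, against -0.03, -0.00 and 0.01 over all probe sets tested. In those comparisons 74.4%, 76.3% and 76.7% of the members were below 0, against 54.7%, 50.6% and 48.9% of all probe sets tested. The count of 18 is less stable than the median. It was 10 without mock SAM replicate 3 (0.572% of all probe sets tested) and 5 without mock replicate 1 (0.289%). The count was 4 without L-AOPP replicate 1 or 2 (0.32% and 0.301%) and 9 without L-AOPP replicate 3 (0.584%). In these settings the share over all probe sets tested fell too, from 1.38%. With the GAPDH ratio as a covariate 2 members were called lower (0.126% of all probe sets tested), at a median of -0.20.

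**Figure D2:**
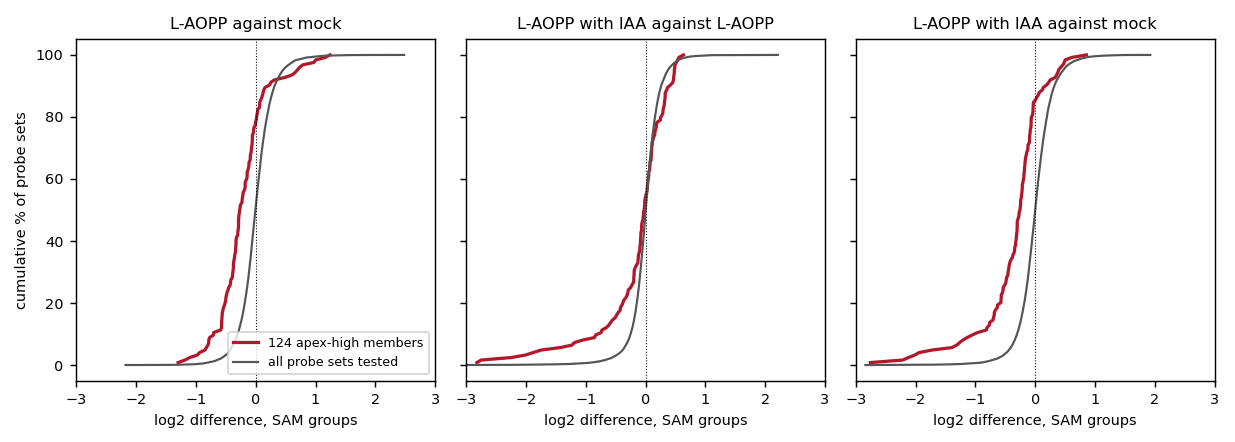
Cumulative share of probe sets (vertical, percent) by log2 difference between SAM groups (horizontal) for the 124 members and for all 15923 probe sets tested. The members' curve lies left of the other in both comparisons with mock (medians -0.26 and -0.25) over most of its range. When IAA is added to L-AOPP the curves meet near 0 (median -0.02), with a longer lower tail for the members.

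Of the named members lowered by L-AOPP, AT2G34700, of the Ole e 1 and extensin family, changed most. Its signal was 262.9, 246.8 and 281.4 with L-AOPP, against 543.2, 467.1 and 714.7 in mock SAM, and the groups did not overlap. The log2 difference was -1.10 ± 0.16 (SE, n = 3; adjusted p 0.00338), and the call held in each of the 19 alternative settings tried. The methyltransferase gene AT5G54400 had 119.4, 120.1 and 157 with L-AOPP, against 262.2, 216 and 303.1 in mock SAM. It fell by 0.98 ± 0.17 (adjusted p 0.00896), a call that did not hold without L-AOPP replicate 1 or 2 or with the GAPDH covariate (-0.77, adjusted p 0.0982). The thaumatin-like gene AT2G28790 had 7738.8, 7870.5 and 7820.5 with L-AOPP and 10127.6, 9734.1 and 11607.2 in mock SAM (-0.42 ± 0.09, adjusted p 0.0205). The efflux transporter gene AT1G71870 had 382.4, 379.7 and 404.9 with L-AOPP and 646, 486.9 and 599.1 in mock SAM (-0.56 ± 0.14, adjusted p 0.0499). In both genes the groups did not overlap, but AT2G28790 was not called in 8 and AT1G71870 in 14 of 19 alternatives, including each one that left out an L-AOPP array or mock replicate 1 or 3. With the GAPDH covariate AT2G28790 was at -0.33 (adjusted p 0.17) and AT1G71870 at -0.41 (adjusted p 0.36). Without mock replicate 3 AT2G28790 was at -0.35 (adjusted p 0.0668) and AT1G71870 at -0.53 (adjusted p 0.138).

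ATLP-1, the second thaumatin-like gene, had 5045.7, 5554 and 5597 with L-AOPP and 6752.6, 5705.5 and 8450.6 in mock SAM, without overlap but not called (-0.35 ± 0.11). NUB had 260.4, 331.1 and 252.1 with L-AOPP and 344.2, 361.8 and 346.9 in mock SAM, again without overlap and not called (-0.33 ± 0.18). The glutaredoxin gene AT3G62960 had 108.4, 113.6 and 101.5 with L-AOPP, against 167.7, 160.3 and 202.4 in mock SAM (-0.71 ± 0.25, adjusted p 0.151, and 0.0486 with only the groups compared), and the formin gene AT5G48360 was at -0.22 ± 0.09. In all, L-AOPP arrays lay below every mock array in 53 members (42.7%), against 12.3% of all probe sets tested, and above every mock array in 9 (7.26%, against 10.5%).

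A few members had higher means with L-AOPP without passing the test. AT3G10040 (HRA1) had 805.1, 803.1 and 894.7 with L-AOPP, against 279, 457.8 and 343.4 in mock SAM, so the groups did not overlap. The log2 difference was 1.24 ± 0.34 (adjusted p 0.0665), and it passed with the pseudocount, with only the groups compared, and without L-AOPP+IAA replicate 1 or 2. The wound-responsive family genes AT4G10270 (0.97 ± 0.30, adjusted p 0.102) and AT4G33560 (0.78 ± 0.45, adjusted p 0.402) also had all L-AOPP arrays above the mock arrays. AT4G33560 passed with only the groups compared (adjusted p 0.049). For AT4G10270 the signals were 2793.4, 2338.1 and 3010.3 with L-AOPP, against 760, 1664 and 2058.7 in mock SAM, where replicate 1 stood low, and without that array the difference was 0.54 (adjusted p 0.312). Beside these members, the summed signal of the 3 measured wound genes was 324 to 456.5 with L-AOPP and 112 to 249 in mock SAM. Of the 3, CML38 was called higher (1.83 ± 0.46, adjusted p 0.0475), while STZ (0.28 ± 0.45) and ORA47 (0.29 ± 0.39) were not called. Their part in the members' values was not tested. Among members near 0 were AT1G62500 (-0.18 ± 0.11), the peroxidase gene AT5G58390 (0.07 ± 0.15), AT1G33790 (-0.01 ± 0.10) and the formin gene AT2G43800 (-0.06 ± 0.10).

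**Figure D3:**
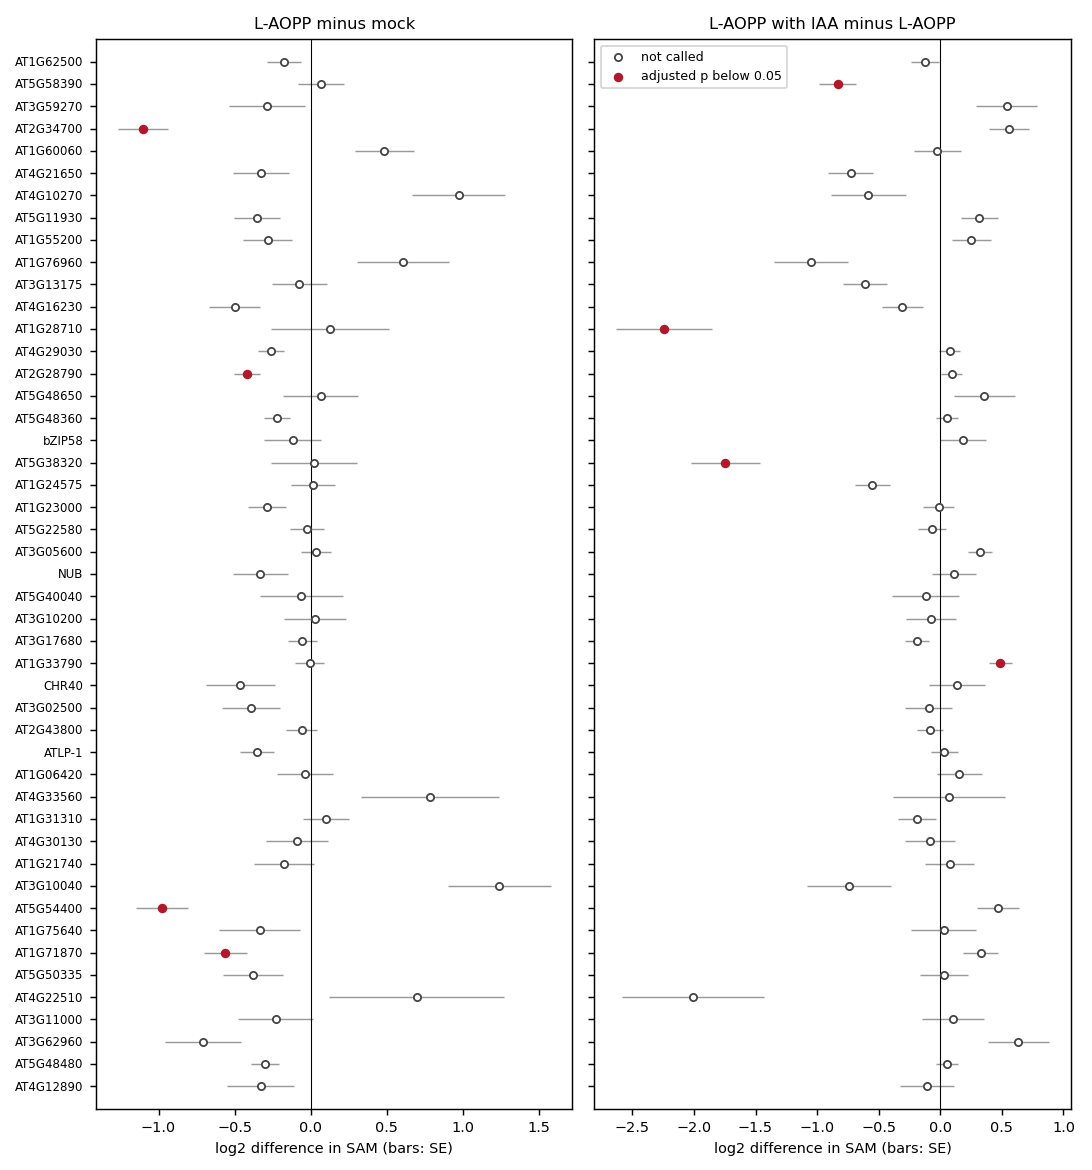
Log2 difference in the SAM for the 47 members with 1 gene, L-AOPP minus mock (left) and L-AOPP with IAA minus L-AOPP (right), with SE bars. Filled points have an adjusted p below 0.05. On the left 4 genes are filled, all lower, and on the right 3 are lower and AT1G33790 is higher.

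Adding 10 nM IAA to L-AOPP asks what auxin changed in inhibitor-treated apices, and this comparison uses no array that chose the members. Of the 124 members 7 were called lower (5.65%, against 0.609% of all probe sets tested) and 1 higher (0.806%, against 0.27%). The members' median was -0.02, against 0.00 over all probe sets tested, and 67 (54.0%) lay below 0, against 49.1% of all probe sets tested. All 3 arrays with IAA lay below the L-AOPP arrays in 25 of the 124 members (9.09% of all probe sets tested) and above them in 17 (9.37% of all probe sets tested). The count of 7 was 1 without L-AOPP replicate 1, 3 without L-AOPP replicate 2, 4 without L-AOPP replicate 3 and 2 without L-AOPP+IAA replicate 3. The share over all probe sets in these settings is not given here.

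AT1G28710, the sugar transferase gene, had 546.8, 152 and 133.3 with L-AOPP and IAA, against 1227, 934.7 and 1028 with L-AOPP. Arrays 2 and 3 came close to the whole plant signals of 121.1, 137.8 and 72.8, while replicate 1 lay between. The log2 difference was -2.24 ± 0.39 (4.74-fold lower, adjusted p 0.0129). It lost this call in 6 of 19 alternatives. Among them were the fit with only the groups compared and those without L-AOPP+IAA replicate 3 or without L-AOPP replicate 1 or 2. The SD of its log2 signal was 1.125 with L-AOPP and IAA and 0.199 with L-AOPP, while the main fit shares 1 spread over all groups. AT5G38320 showed the same layout at 96.3, 48 and 39.6 with L-AOPP and IAA, against 189.4, 167.1 and 218.1 with L-AOPP (-1.75 ± 0.28, 3.35-fold lower, adjusted p 0.00862). Its call did not hold without L-AOPP+IAA replicate 3, without L-AOPP replicate 1 or without the filter. The peroxidase gene AT5G58390 varied less between replicates, with 833.9, 814.1 and 784.8 with L-AOPP and IAA, against 1411.5, 1492.5 and 1432.4 with L-AOPP. It was 1.78-fold lower (-0.83 ± 0.15, adjusted p 0.0161), and in 7 of 19 alternatives it was not called, among them leaving out any 1 L-AOPP array and the GAPDH covariate (-0.76, adjusted p 0.0663). With L-AOPP alone these 3 genes stood against mock at 0.12 ± 0.39, 0.02 ± 0.28 and 0.07 ± 0.15 in the order given, all with overlapping arrays and not called.

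The jacalin lectin gene AT1G33790 was the only member called higher. It had 1838.6, 2195.8 and 2085.8 with L-AOPP and IAA, against 1425, 1445.3 and 1480.2 with L-AOPP, without overlap (0.49 ± 0.10, 1.40-fold, adjusted p 0.0257). The mock signals of 1442.7, 1483.7 and 1441 overlapped those with L-AOPP alone. In 8 of 19 alternatives it was not called, among them leaving out any 1 L-AOPP array or L-AOPP+IAA replicate 2 or 3, and the GAPDH covariate (0.48, adjusted p 0.0771).

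The other 4 members called lower have several genes or none in the annotation. Probe set 249477_s_at, annotated to several genes, had 1661.8, 204.3 and 239.7 with L-AOPP and IAA, against 3634.2, 2597.6 and 3025.4 with L-AOPP (-2.82 ± 0.52, adjusted p 0.0183). Probe set 266383_at had 79.3, 7 and 28.9 with L-AOPP and IAA, against 251.4, 223.5 and 247.4 with L-AOPP (-2.75 ± 0.40 with the floor, adjusted p 0.00519). In both, as in AT1G28710 and AT5G38320, replicate 1 was the highest of the L-AOPP with IAA arrays. The replicate spread was uneven over the members, while the fit gave each probe set 1 spread shared by all groups. The SE and adjusted p given here therefore do not measure the spread of the L-AOPP with IAA arrays alone. For 249477_s_at the SD of the log2 signal was 1.68 with L-AOPP and IAA and 0.24 with L-AOPP. The SD of the log2 signal exceeded 0.5 in 12 members with L-AOPP and IAA, in 0 with L-AOPP and in 5 in mock SAM, and exceeded 1 in 7, 0 and 1 members in the same order of groups. AT4G22510 was among the 7, with 147.8, 6.8 and 56.9 with L-AOPP and IAA against 269.7, 160.7 and 252.5 with L-AOPP (-2.01 ± 0.58, adjusted p 0.141), and it was called when L-AOPP+IAA replicate 1 was left out (adjusted p 0.0125). AT4G33560 was another, with 529.8, 151 and 971.4 with L-AOPP and IAA.

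Other single-gene members lay apart from L-AOPP without passing the test. AT1G24575 had 246.3, 256.9 and 217.9 with L-AOPP and IAA, against 326, 350.5 and 380.7 with L-AOPP (-0.55 ± 0.14, adjusted p 0.0977). AT3G13175 had 912.2, 665.2 and 1047.6 with L-AOPP and IAA, against 1267, 1257.6 and 1423.9 with L-AOPP (-0.61 ± 0.18, adjusted p 0.155). In both genes all arrays with IAA lay below all L-AOPP arrays. The epoxide hydrolase-like gene AT3G05600 lay above them, with 1806.8, 2125.6 and 2004.5 against 1641.9, 1602.1 and 1498.2 with L-AOPP (0.32 ± 0.10, adjusted p 0.174). HRA1 (AT3G10040) had 843.3, 321 and 457.3 with L-AOPP and IAA, so that replicate 1 lay within the L-AOPP range and the other replicates below it (-0.74 ± 0.34, adjusted p 0.43).

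**Figure D4:**
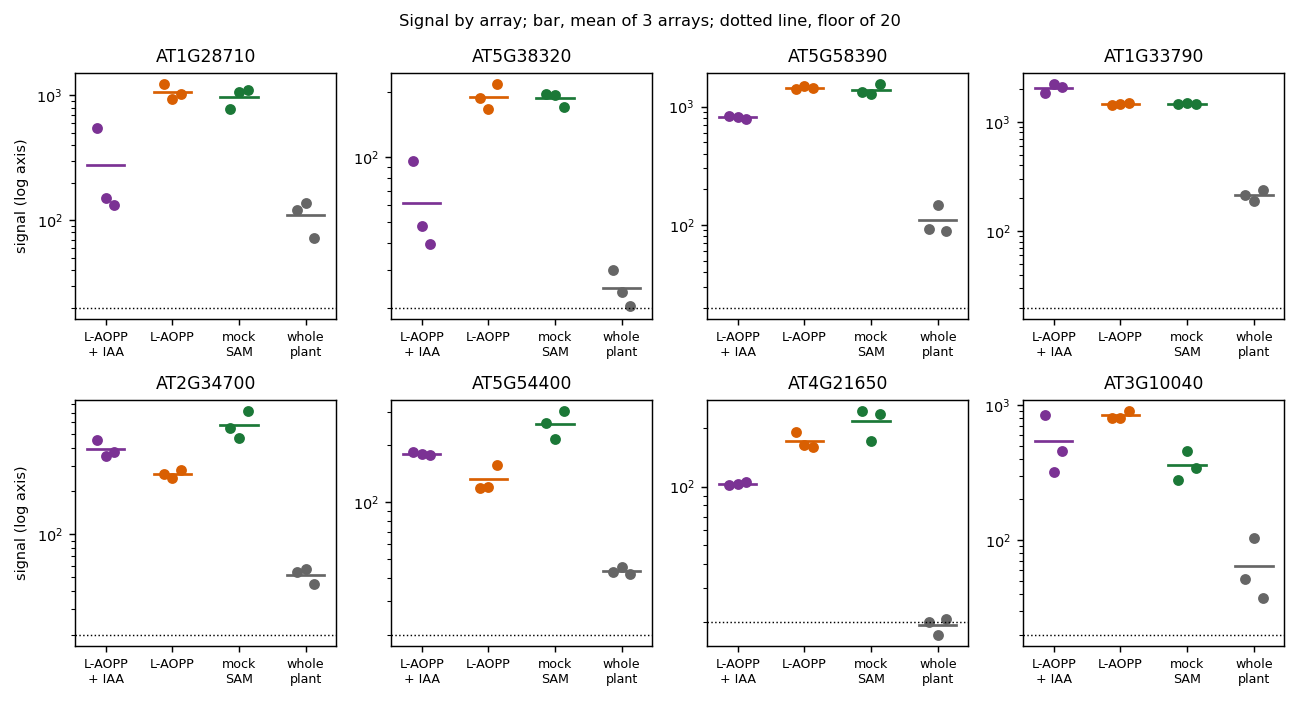
Signal (log axis) of 8 members on each array, with a bar at the mean of 3 arrays and a dotted line at the floor of 20. Each panel has its own scale. AT1G28710 and AT5G38320 have 1 L-AOPP with IAA array (replicate 1) above the other 2, and AT2G34700 and AT5G54400 have their L-AOPP arrays below both other SAM groups.

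Of the 18 members lowered by L-AOPP, 0 were called higher by limma when IAA was added, against 0.27% of all probe sets tested. Of all 124 members 14 were higher and 21 lower at an unadjusted limma p below 0.05. The share of all probe sets at that p was not computed, so these counts too are no result about the members. The 18 were called on the same L-AOPP arrays, so a higher mean with IAA is not independent of that call, and the values that follow are a description. AT2G34700 had 448.3, 347.7 and 371.8 with L-AOPP and IAA, above all L-AOPP arrays and below all mock arrays (0.56 ± 0.16 against L-AOPP, adjusted p 0.153). AT5G54400 had 184.4, 180.1 and 178.7 with L-AOPP and IAA, between the same groups (0.47 ± 0.17, adjusted p 0.277). AT1G71870 was at 447.5, 478 and 543 (0.33 ± 0.14, adjusted p 0.404). For AT2G28790 the difference was 0.09 ± 0.09. The glutaredoxin gene AT3G62960, not called with L-AOPP, had 170.3, 148 and 185.3 with L-AOPP and IAA, above all L-AOPP arrays and overlapping the mock arrays (0.63 ± 0.25, adjusted p 0.325). NUB (0.11 ± 0.18), ATLP-1 (0.03 ± 0.11), CHR40 (0.13 ± 0.23) and bZIP58 (0.18 ± 0.18) lay within 1 SE of 0.

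L-AOPP with IAA against mock shares its mock arrays with the rule. Of the 124 members 18 were called lower (14.5%, against 1.84% of all probe sets tested) and 1 higher (0.806%, against 1.26%), and the median was -0.25, against -0.00 over all probe sets tested. The mean lay below mock in 105 members (84.7%, against 50.2%), with no overlap in 57 (46.0%, against 11%), and 5 lay above without overlap (4.03%, against 9.73%). The 18 include 5 of the 18 called lower with L-AOPP alone, a comparison with the same mock arrays. They also include all 7 members lowered by IAA in the comparison with L-AOPP, which shares the arrays with IAA. Named members called only here were the subtilase gene AT4G21650 and the lipase gene AT4G16230. AT4G21650 had 101.4, 103.6 and 106.1 with L-AOPP and IAA, 192.6, 164.6 and 159.9 with L-AOPP and 245.1, 172.2 and 237.5 in mock SAM. It fell by 1.06 ± 0.19 against mock (adjusted p 0.00771), and against L-AOPP its difference was -0.73 ± 0.19 (adjusted p 0.0935). AT4G16230 had 181.2, 164 and 188.5 with L-AOPP and IAA, 196.6, 216.8 and 249.2 with L-AOPP and 294.2, 288.8 and 352.4 in mock SAM. It fell by 0.81 ± 0.17 against mock (adjusted p 0.0184). Without mock SAM replicate 3 the count of members called lower was 10 and AT4G16230 (-0.71, adjusted p 0.0862), AT5G58390 (-0.69, adjusted p 0.0672) and AT1G33790 (0.48, adjusted p 0.0524) were not called. AT4G16230 was not called without L-AOPP+IAA replicate 2 either. With the GAPDH ratio as a covariate 0 members were called, as were 0.0188% lower and 0.0126% higher of all probe sets tested, and the members' median was -0.19.

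Genes on the other lists are given for these comparisons as values. Of the 6 measured meristem and boundary genes 0 were called in any of the 3 SAM comparisons. Their medians were -0.52 for L-AOPP against mock and 0.37 when IAA was added to L-AOPP. Both medians use the same L-AOPP arrays with opposite sign, so their opposite signs are partly built in. CLV3, the stem cell peptide gene, was at -0.91 ± 0.36 with L-AOPP (adjusted p 0.208), and UFO at -0.80 ± 0.21 (adjusted p 0.0552). The others were LAS (-0.54 ± 0.25), FD (-0.49 ± 0.37), PHV (-0.25 ± 0.11) and YAB3 (-0.05 ± 0.17). The 8 cell cycle genes had medians of 0.07 and 0.02 and 0 calls, and the 4 photosynthesis genes -0.05 and -0.03 and 0 calls. Of 9 auxin genes tested, HAT2 was called lower with L-AOPP (-0.75 ± 0.14, adjusted p 0.0118) and also with L-AOPP and IAA against mock (-0.57 ± 0.14, adjusted p 0.039), and 0 were called between L-AOPP with IAA and L-AOPP.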

How the data were processed

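Transcript levels were measured on 12 arrays in 4 groups of 3. The deposited values hold 1 signal intensity for each probe set, on a linear scale, made with MAS5 per the submitters' processing notes, with no version given. The values had been brought to a common scale before deposit: the mean of each array, trimmed by 2% at both ends, was 500.05 to 500.06, and array medians ran from 166 to 194. There are no detection calls, and the number of arrays limits the precision.

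From these values 64 control probe sets were set aside, values were floored at 20 and log2 was taken. The 30% of probe sets with the lowest mean over all arrays were not tested, which left 15923. All 124 members passed, and a member can pass through the groups where it is high. Under R 4.3.3, limma 3.58.1 (lmFit and eBayes, trend = TRUE) fitted 1 coefficient per group over all arrays, and tests were two-sided, with Benjamini-Hochberg adjustment over all probe sets tested and a call at an adjusted p below 0.05. Fold changes are on the log2 scale with this floor, which understates those of dim probe sets. The fit was tested on simulated data. Other figures were computed in Python 3.11.15.

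Members were named through the array platform's annotation, whose names can be outdated, and 46 of the 47 single-gene members matched the RefSeq gene table (TAIR10.1), from which only names and gene order were taken. The members, gene lists, naming rule and alternatives were chosen with earlier results of these data known. Named by the rule are members with a symbol, the 10 with the largest difference measured on both sides, the 8 with the largest bound (5 exist), called members, list members and the 3 on each side of the threshold. The other single-gene members were named after their values were seen, and families could not be taken from the gene table, which holds no product names. Replicate numbers were shared by the groups, but same-numbered SAM arrays did not deviate together: 2 of 9 correlations of their deviations exceeded 0.1 (range -0.20 to 0.12). Sequences are not used here.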

Additional observations from a re-analysis of the deposited data

How the results depend on the processing

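The median differences of the members kept their sign under every alternative in both comparisons with mock. The numbers of calls depended more on the settings. With L-AOPP the 18 members called lower (1.38% of all probe sets tested) became 5 without the filter (0.198%) and 9 without the intensity trend (0.603%). Under the GAPDH covariate 2 were called lower (0.126%), and 4 to 17 when 1 array was left out (0.289% to 1.87%). The 0 called higher (1.25% of all probe sets tested) became 2 with the pseudocount of 30 (1.43%) and 6 with only the groups compared (1.39%). Without 1 array 0 to 2 were called higher (0.201% to 1.83%). With IAA added to L-AOPP the 7 called lower became 0 without the filter, 4 with the lowest 50% left out and 4 without the trend, and 1 to 10 without 1 array. The 1 called higher became 2 with the pseudocount, 0 without the filter and 0 without the trend, and 0 to 3 without 1 array. For L-AOPP with IAA against mock the 18 lower and 1 higher became 5 and 0 without the filter and 0 and 0 with the GAPDH covariate, and 10 to 22 lower and 0 to 1 higher without 1 array. Shares over all probe sets tested are given here only for L-AOPP against mock. The cause of the changes in these counts was not tested. With the replicate number as a block (replicate block) 15, 7 and 17 members were called lower in the 3 comparisons in the order given, against 18, 7 and 18 without it. The 124 members became 237 without a floor, 320 at a threshold of 2 and 58 at a threshold of 3, and 116 to 138 without 1 array. With a floor of 40 there were 102 and with median centring 100, all of them among the 124. Signal at or below the floor on 1 whole plant array (14 members) or more (12 members) makes those differences lower bounds.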
